A study of Homo sapiens with 27 samples.

Results

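The 47 genes described here encode proteins of the nucleolus that make ribosomes. They were taken by symbol from a written list, and each symbol matched a single row of the 57992 genes in the deposited table. All 47 passed the filter on low counts in each line, the lowest expected count of any of them in any library being 68. By role, 5 act in RNA polymerase I transcription, 4 in box C/D and 4 in box H/ACA small nucleolar ribonucleoproteins (snoRNPs), 14 in assembly of the small ribosomal subunit, 14 in assembly of the large subunit, and 6 are nucleolar scaffold proteins or regulators.

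RNA was sequenced from 3 human acute myeloid leukaemia lines infected with constitutive lentiviral shRNAs and harvested at day 3. Each line had 9 libraries: 3 with hairpin 2 against CARM1, 3 with hairpin 1 against CARM1 and 3 with a scramble hairpin (shCt). CARM1, also called PRMT4, is an arginine methyltransferase that acts as a transcriptional coactivator. MOLM-13 (here MOLM13) and MV411 carry KMT2A fusions and were grown without a listed supplement, while SKNO1 carries the RUNX1-RUNX1T1 fusion and all of its groups received 10 ng/mL GM-CSF. The leukocyte and myeloid genes PTPRC, CD33 and SPI1 were expressed in all 27 libraries, and RUNX1T1 had a median of 92.1 CPM (counts scaled to a common library size) in SKNO1 and 0 in MOLM13 and MV411. No label says whether replicates were separate cultures or infections, so p-values measure only the spread between these samples.

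Ribosome production begins when RNA polymerase I transcribes the ribosomal DNA repeats into a long precursor. Box C/D snoRNPs guide methylation of that precursor and box H/ACA snoRNPs guide its pseudouridylation, while separate sets of assembly factors, helicases and GTPases fold and cut it into the small and large subunits. These genes are known to be transcribed together in growing cells and are classical targets of the MYC transcription factor, which binds the E-box sequence CACGTG.

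The E-box was present in many of the members' promoters. Promoter windows of RefSeq (GRCh38.p14), running from 250 bases before to 50 after the annotated start, were matched for 40 of the 47 genes. For the 10 symbols with more than 1 window, the first listed was used. CACGTG occurred in 14 of the 40 windows (35%), against 2030 of 27305 promoter windows of all genes (7.43%). The sequence reads the same on both strands, and 14 of its 16 matches began between 11 bases before and 35 bases after the start. CCGGAAG, a core recognised by ETS-family factors, was found on either strand in 35% of the members' windows and 10.7% of all windows. TATAAA was found in 5.0% of the members' windows and 12% of all, and GCCATNTTG, a YY1 core, in 7.5% and 3.04%. The median GC content was 61.8% in the members' windows and 58.3% in all windows, and its part in these shares was not tested. Matches describe letters in a window and do not show binding.

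Shown are the windows of the small-subunit factors IMP4 and RRP9, the large-subunit factors PES1 and MRTO4, and the snoRNP protein NOP10. NOP10 is the member that moved against the others in the results below. All of these windows hold CACGTG, which 26 of the 40 windows lack, so they do not represent the members as a set. Other genes that carry the results below are not shown. Capitals mark each CACGTG, and every sequence runs 5′ to 3′ on the gene's own strand.
IMP4 (chr2:130342647-130342946, plus strand): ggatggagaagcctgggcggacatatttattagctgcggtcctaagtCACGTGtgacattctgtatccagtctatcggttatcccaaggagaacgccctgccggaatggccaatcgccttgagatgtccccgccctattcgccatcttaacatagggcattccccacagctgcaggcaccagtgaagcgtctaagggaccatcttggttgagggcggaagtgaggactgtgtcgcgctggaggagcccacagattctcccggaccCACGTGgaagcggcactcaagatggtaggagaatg
RRP9 (chr3:51941855-51942154, minus strand): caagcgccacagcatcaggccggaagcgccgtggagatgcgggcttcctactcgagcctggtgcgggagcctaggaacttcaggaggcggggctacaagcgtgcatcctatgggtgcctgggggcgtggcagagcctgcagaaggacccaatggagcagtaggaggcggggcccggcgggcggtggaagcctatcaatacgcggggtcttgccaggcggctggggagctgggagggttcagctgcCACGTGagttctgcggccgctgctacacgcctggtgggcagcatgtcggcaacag
PES1 (chr22:30591861-30592160, minus strand): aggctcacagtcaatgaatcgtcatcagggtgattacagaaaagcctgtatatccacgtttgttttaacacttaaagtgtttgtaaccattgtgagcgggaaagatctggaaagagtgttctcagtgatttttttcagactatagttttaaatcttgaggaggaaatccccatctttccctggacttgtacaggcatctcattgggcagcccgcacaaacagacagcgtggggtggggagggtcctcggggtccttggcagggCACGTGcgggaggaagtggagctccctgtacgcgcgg
MRTO4 (chr1:19251555-19251854, plus strand): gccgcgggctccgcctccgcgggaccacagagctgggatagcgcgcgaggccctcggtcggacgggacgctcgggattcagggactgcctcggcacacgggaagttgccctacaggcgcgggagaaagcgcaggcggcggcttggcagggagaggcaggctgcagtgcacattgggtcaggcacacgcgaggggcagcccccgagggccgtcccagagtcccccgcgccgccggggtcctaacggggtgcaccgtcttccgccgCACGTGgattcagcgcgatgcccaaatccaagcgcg
NOP10 (chr15:34343087-34343386, minus strand): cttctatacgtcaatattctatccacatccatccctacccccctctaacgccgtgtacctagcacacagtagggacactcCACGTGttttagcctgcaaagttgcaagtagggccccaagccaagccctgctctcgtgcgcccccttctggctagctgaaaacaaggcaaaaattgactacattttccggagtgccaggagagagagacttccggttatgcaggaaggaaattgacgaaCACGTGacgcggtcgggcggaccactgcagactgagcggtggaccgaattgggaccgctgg

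IMP4 and NOP10 each held 2 matches, beginning at positions -203 and 15 in IMP4 and at -170 and -11 in NOP10 relative to the start. In RRP9, PES1 and MRTO4 there was 1 match each, close to the start.

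**Figure D1:**
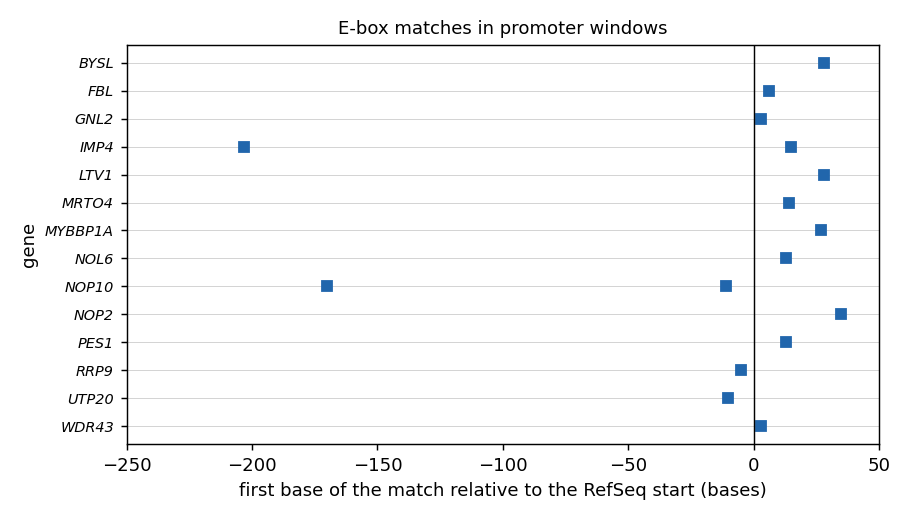
Position of CACGTG in the promoter windows of the 14 members that hold it. The x axis gives the first base of each match relative to the RefSeq start in bases, the y axis the gene, and each square is 1 match; all but the upstream matches of IMP4 (-203) and NOP10 (-170) lie within 11 bases before to 35 bases after the start.

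CARM1 itself was lower with both hairpins in every line, and hairpin 2 lowered it further in MV411 and SKNO1. In MOLM13, CARM1 averaged 4.0 ± 1.07 CPM with hairpin 2, 4.75 ± 1.65 with hairpin 1 and 24.5 ± 4.15 with scramble (SD, n = 3 each). In MV411 the averages were 3.03 ± 0.63, 6.10 ± 0.273 and 23.3 ± 0.622 CPM, in the same order. In SKNO1 they were 2.76 ± 0.089, 7.54 ± 1.63 and 17.8 ± 1.95 CPM. Between the hairpins, the log2 fold change of CARM1 (hairpin 2 over hairpin 1) was -1.02 ± 0.18 (SE) in MV411, with an adjusted p of 0.0046, and -1.45 ± 0.20 in SKNO1, with an adjusted p of 0.00096. The MOLM13 value of -0.22 ± 0.30 did not pass (adjusted p = 1).

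With hairpin 2, the nucleolar genes as a group were lower than scramble in each of the 3 lines. By edgeR's quasi-likelihood test at an adjusted p under 0.05, 34 of 47 members fell in MV411, where 10.2% of all tested genes fell. In MOLM13, 17 fell against 6.03% of all genes, and in SKNO1, 6 fell against 5.69%. No member rose with hairpin 2 in any line, while 8.38% of all genes rose in MV411, 3.39% in MOLM13 and 5.54% in SKNO1. DESeq2 called 30 members lower in MOLM13 (63.8% of the 47, beside 15.5% of all genes called in either direction), 34 in MV411 (72.3%, beside 21.8%) and 12 in SKNO1 (25.5%, beside 15.6%). With the replicate number as a block, 40 members fell in MV411 (85.1%, beside 27.3% of all genes called in either direction). The 6 added were NOP58, GAR1, WDR43, NCL, DDX21 and GNL3. The pairing of hairpin 2 and scramble libraries by number there was taken from these same data and not from the labels. The 6 added calls are therefore not independent evidence, here and where they are given by gene below. The median log2 fold change of the 47 genes was -0.70 in MV411, -0.60 in MOLM13 and -0.48 in SKNO1, beside medians over all genes of 0.00, 0.07 and 0.00. Without scramble replicate 2 the SKNO1 median was -0.32. The fold change was below 0 in all 3 lines for 44 of 47, the others being DDX56, NOP10 and UBTF.

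Fewer members passed the test with hairpin 1. In MOLM13, 5 members fell (4.25% of all genes fell) and 0 rose (2.13% of all genes), and the median was -0.46 against 0.01 over all genes. DESeq2 called 13 lower there (27.7%, beside 11.5% of all genes called in either direction). In MV411 only NOP10 fell (4.13% of all genes fell), 0 rose (2.37% of all genes), and the median was -0.05, which moved between -0.17 without scramble replicate 2 and 0.02 without hairpin 1 replicate 2. In SKNO1, 0 members fell and 0 rose by edgeR (0.277% of all genes fell and 0.255% rose), and the median was 0.12. That median was 0.26 without scramble replicate 2, but -0.02 without hairpin 1 replicate 2, 0.02 without hairpin 1 replicate 3 and 0.03 without scramble replicate 3. In SKNO1, 11 members (23.4%) had an unadjusted p under 0.05, every one with a positive fold change, beside 17% of all genes in either direction. DESeq2 called 3 members higher (6.38%), near its share of all genes (5.28% in either direction). Both hairpins of a line were compared with the same scramble libraries, so the comparisons within a line are not independent. Hairpin 2 differs from hairpin 1 both in its sequence and, in MV411 and SKNO1, in how far it lowered CARM1, and these cannot be told apart here.

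**Figure D2:**
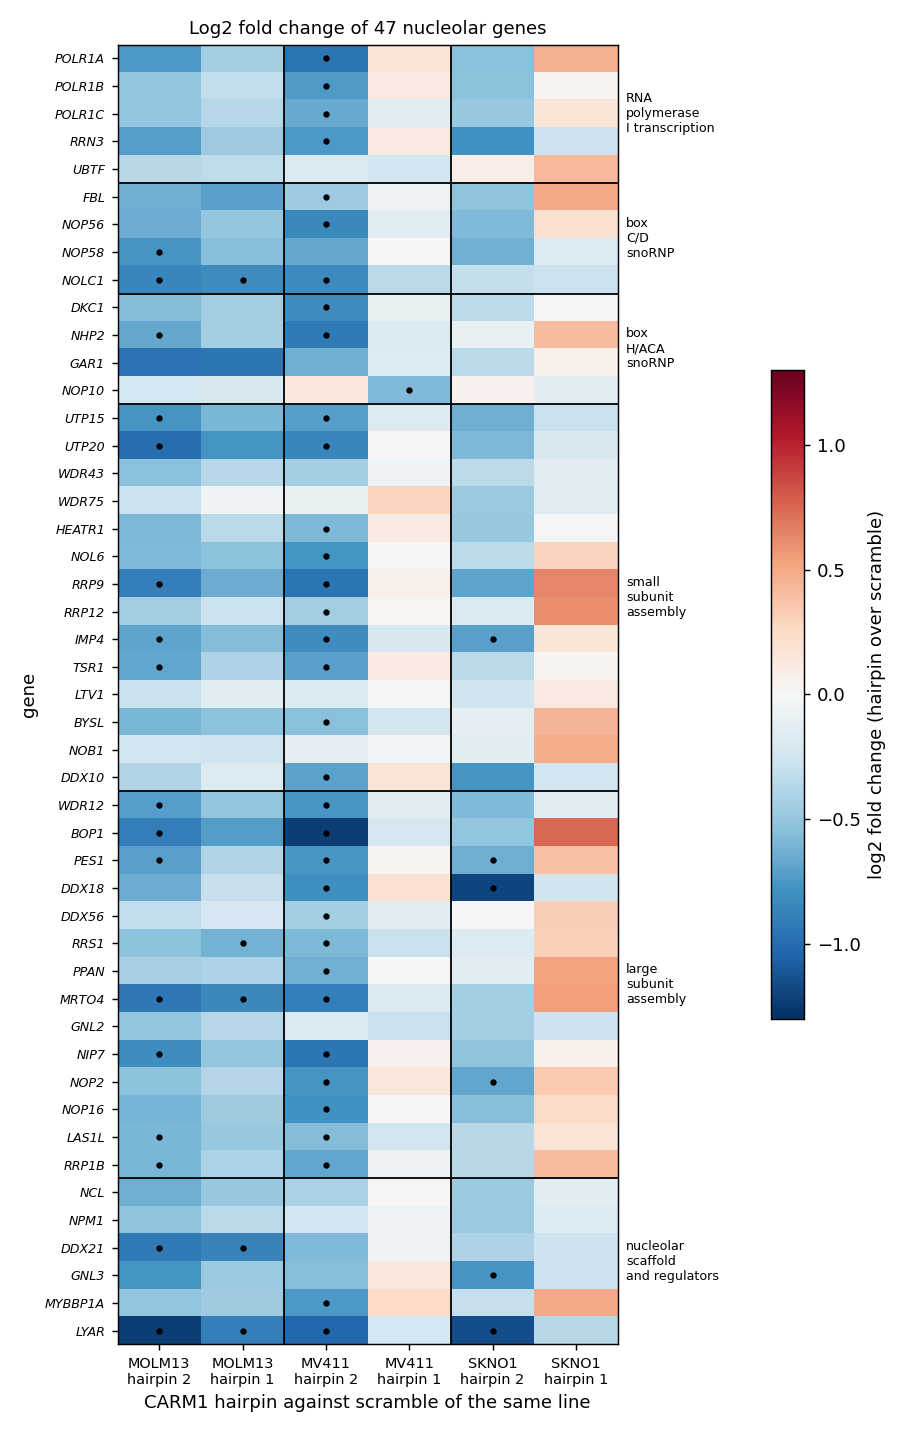
Log2 fold change of each of the 47 genes, with each hairpin over the scramble of its line; rows are genes grouped by role, columns are line and hairpin, blue is lower and red is higher than scramble, and a dot marks an adjusted p under 0.05. Hairpin 2 columns are blue for nearly all genes with 17, 34 and 6 dots in MOLM13, MV411 and SKNO1, while hairpin 1 columns hold 5, 1 and 0.

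The summed level of the 47 genes was lowest with hairpin 2 in each line. In MOLM13 it was 3132 ± 303 CPM with hairpin 2, 3552 ± 590 with hairpin 1 and 4877 ± 406 with scramble. In MV411 it was 2962 ± 734 CPM with hairpin 2, 4083 ± 518 with hairpin 1 and 4157 ± 500 with scramble. In SKNO1 it was 3439 ± 183, 4800 ± 655 and 4690 ± 642 CPM in the same order. These are bulk libraries, in which fewer cells expressing a gene and less RNA per cell cannot be told apart. A CPM is also a share of the library, so it does not show the absolute amount of RNA per cell. The sum is weighted to the members with the highest CPM. NPM1, which passed the test in no line without the block, had 838, 1102 and 1084 CPM in the MOLM13 scramble libraries.

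**Figure D3:**
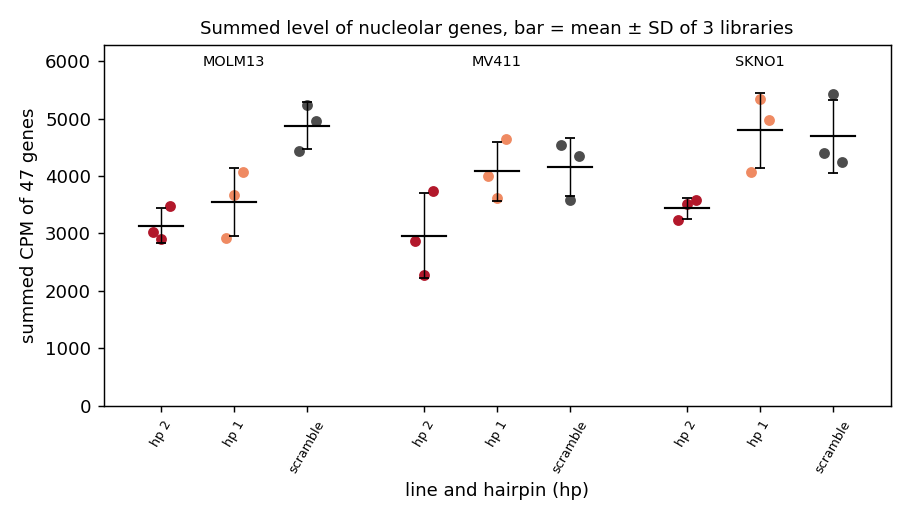
Summed CPM of the 47 genes in each library (points), with the mean (line) and SD (bar) of 3 libraries per group; the x axis gives hairpin 2, hairpin 1 and scramble within each line. In MOLM13 and SKNO1 every hairpin 2 library lies below every scramble library, while in MV411 the highest hairpin 2 library (3737) lies above the lowest scramble library (3591).

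In several groups most members had their lowest or highest level in the same library. Replicate 2 was the lowest of its 3 libraries for 37 of 47 members with hairpin 2, for 41 with hairpin 1 and for 41 with scramble in MV411. In MOLM13, hairpin 1 replicate 1 was the lowest of its group for 39 members. In SKNO1, scramble replicate 2 was the highest of its group for 42 members. Other groups were more evenly split. In MOLM13 hairpin 2, replicate 1 was the lowest for 14 members, replicate 2 for 25 and replicate 3 for 8. The matching shares over all genes were not computed, and a shift of a library as a whole was not tested. The coefficient of variation of a member within a group ranged from 1.2% to 48.2%, with a median of 13.9%.

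Abundant structured RNAs (7SL, 7SK, RNase P, RMRP and their copies) took a larger mean share of counts with the hairpins, although in MV411 hairpin 2 the difference was within the spread of replicates. Their share was 17.5% ± 4.29 with hairpin 2, 18.3% ± 2.27 with hairpin 1 and 12.4% ± 1.13 with scramble in MOLM13. In MV411 it was 12.8% ± 1.5, 15% ± 0.888 and 12% ± 0.992, and in SKNO1 25.2% ± 3.01, 24.7% ± 0.847 and 18.6% ± 1.14, in the same order. The share of mitochondrial rRNA in MOLM13 was 28.2% ± 0.727, 28.3% ± 2.85 and 24.9% ± 1.82. The MV411 libraries had 31.1% ± 1.91, 32.4% ± 2.14 and 26.2% ± 1.47, and those of SKNO1 0.141% ± 0.0613, 0.204% ± 0.198 and 0.0912% ± 0.0153, each for hairpin 2, hairpin 1 and scramble. When both kinds of RNA were left out before scaling, hairpin 2 lowered 21 members in MOLM13, 34 in MV411 and 5 in SKNO1. Hairpin 1 lowered 6, 1 and 0. Of all genes, 1729, 3347 and 1994 were then called in either direction with hairpin 2, and 1140, 1156 and 73 with hairpin 1. The part of these RNAs in the changes was not tested.

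Among the RNA polymerase I genes, hairpin 2 lowered 4 of 5 in MV411 and 0 in MOLM13 and SKNO1. Of all genes, it lowered 10.2% in MV411, 6.03% in MOLM13 and 5.69% in SKNO1. POLR1A, the largest catalytic subunit (chr2:86020216-86106155, minus strand, GRCh38), gave 40.1, 55.8 and 54.3 CPM with hairpin 2 in MV411, 114, 98.0 and 112 CPM with hairpin 1, and 95.1, 93.8 and 96.7 CPM with scramble. All hairpin 2 libraries lay below all others, and hairpin 1 lay above scramble in each library without passing the test. The log2 fold change of hairpin 2 over scramble was -0.95 ± 0.15 (adjusted p = 0.0017). In SKNO1, POLR1A was 62.6, 55.5 and 59.8 CPM with hairpin 2, 106, 104 and 145 CPM with hairpin 1, and 84.1, 90.2 and 81.9 CPM with scramble. The hairpins thus lay on opposite sides of scramble, but neither change passed edgeR's test. In MOLM13 POLR1A was 68.8, 62.0 and 49.1 CPM with hairpin 2, 48.2, 82.3 and 94.7 CPM with hairpin 1, and 102, 101 and 103 CPM with scramble. Every hairpin library of MOLM13 lay below scramble, but the change with hairpin 2 (-0.74 ± 0.23) did not pass the test (adjusted p = 0.07).

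POLR1B, the second-largest subunit, POLR1C, a subunit shared with RNA polymerase III, and RRN3, the factor that brings the polymerase to the promoter, fell with hairpin 2 in MV411 by 0.73, 0.65 and 0.75 on the log2 scale. All of these calls were lost without hairpin 2 replicate 1, and those of POLR1C and RRN3 also without scramble replicate 1 or scramble replicate 3. UBTF, which binds ribosomal DNA and keeps it open, behaved differently. It was 65.6, 64.5 and 69.2 CPM with hairpin 2, 61.2, 61.8 and 67.9 CPM with hairpin 1 and 76.3, 70.3 and 77.3 CPM with scramble in MV411. Its fold change with hairpin 2 was -0.19 ± 0.11 in MV411, -0.36 ± 0.17 in MOLM13 and 0.09 ± 0.15 in SKNO1, and none passed the test.

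Of the box C/D snoRNP genes, hairpin 2 lowered NOP58 and NOLC1 in MOLM13, and FBL, NOP56 and NOLC1 in MV411. With the block NOP58 also fell in MV411 (adjusted p = 0.0099, against 0.097 without it). NOP56, a core protein of these particles, was 79.3, 76.6 and 104 CPM with hairpin 2, 136, 126 and 158 CPM with hairpin 1 and 164, 136 and 159 CPM with scramble in MV411. Hairpin 2 did not overlap either other group there, and its fold change over scramble was -0.84 ± 0.16 (adjusted p = 0.0042). NOLC1, a chaperone that links snoRNPs to RNA polymerase I, was 60, 77.1 and 91.6 CPM with hairpin 2 in MOLM13, 66.6, 84.2 and 87.4 CPM with hairpin 1 and 128, 168 and 122 CPM with scramble. Its fold change there was -0.85 ± 0.20 with hairpin 2 (adjusted p = 0.027) and -0.82 ± 0.20 with hairpin 1 (adjusted p = 0.037). The hairpin 1 call was lost in all 6 fits without 1 library, and the hairpin 2 call without hairpin 2 replicate 1 or 2 or scramble replicate 2 or 3. FBL, the methyltransferase fibrillarin, had in SKNO1 112, 93.2 and 103 CPM with hairpin 2, 290, 169 and 164 CPM with hairpin 1 and 144, 150 and 146 CPM with scramble. It was thus lowest with hairpin 2 and highest with hairpin 1 in SKNO1, with no overlap between groups. Neither change of FBL from scramble passed the test in SKNO1.

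The box H/ACA proteins DKC1, the pseudouridine synthase, and NHP2 fell with hairpin 2 in MV411, and NHP2 also in MOLM13. GAR1, another core protein, fell in MV411 with the block (adjusted p = 0.016, against 0.07 without it). The fold change of DKC1 in MV411 was -0.80 ± 0.20 (adjusted p = 0.017), a call lost without hairpin 2 replicate 1, scramble replicate 1 or scramble replicate 3. In MOLM13 the fold change of NHP2 with hairpin 2 was -0.66 ± 0.15 (adjusted p = 0.022), a call lost without hairpin 2 replicate 1, scramble replicate 1 or scramble replicate 2. NHP2 gave 27.4, 24.5 and 26.9 CPM with hairpin 2 in MV411, 44.4, 40.9 and 44.5 CPM with hairpin 1 and 48.6, 45.1 and 52.8 CPM with scramble. Its fold change over scramble of -0.91 ± 0.12 had the smallest adjusted p of the 47 genes in that comparison (0.0007). Exons of NHP2 overlap RMND5B on the opposite strand over 27.4% of their length, and the strand setting of the counting is not given in the sources used here.

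NOP10, a small core protein of the same particles (chr15:34341713-34343177, minus strand), moved differently from its partners. In MV411 it was 52.8, 47.7 and 52.1 CPM with hairpin 2, 31.9, 29.9 and 31.0 CPM with hairpin 1 and 54.0, 36.3 and 46.6 CPM with scramble. The hairpin 1 libraries lay below all others, and hairpin 2 overlapped scramble. The fold change was -0.57 ± 0.15 with hairpin 1 over scramble (adjusted p = 0.047) and 0.71 ± 0.15 with hairpin 2 over hairpin 1 (adjusted p = 0.013). The first of these calls was kept in only 1 of the 6 fits that left out a library, the one without scramble replicate 2 (adjusted p = 0.0083). The second was lost without hairpin 2 replicate 1 or without any 1 hairpin 1 library. NOP10 has no exon overlap with another gene in GENCODE 29. In MOLM13 it was 31.2, 33.1 and 56.5 CPM with hairpin 2, 55.2, 34.3 and 34.5 CPM with hairpin 1 and 47.9, 53.2 and 42.3 CPM with scramble, and all groups overlapped.

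Small-subunit assembly genes fell with hairpin 2 in 5 of 14 cases in MOLM13, 10 of 14 in MV411 and 1 of 14 in SKNO1. The shares of all genes that fell were 6.03%, 10.2% and 5.69%, and the SKNO1 count is near its share. IMP4, a component of the U3 snoRNP (chr2:130342225-130347810, plus strand), was among the 3 members that fell in every line. Its levels were 33.2, 30.1 and 33.3 CPM with hairpin 2, 29.1, 38.4 and 39.4 CPM with hairpin 1 and 46.8, 57.3 and 53.6 CPM with scramble in MOLM13. In MV411 they were 28.0, 28.1 and 29.2 CPM with hairpin 2, 43.2, 39.2 and 46.0 CPM with hairpin 1 and 50.1, 45.5 and 51.5 CPM with scramble. In SKNO1 they were 25.2, 26.5 and 28.6 CPM with hairpin 2, 47.4, 42.4 and 56.8 CPM with hairpin 1 and 41.8, 45.2 and 42.9 CPM with scramble. Hairpin 2 libraries lay below all scramble libraries in each line, within a narrow span. The fold changes of hairpin 2 over scramble were -0.68 ± 0.15 in MOLM13 (adjusted p = 0.024), -0.81 ± 0.12 in MV411 (adjusted p = 0.0013) and -0.71 ± 0.16 in SKNO1 (adjusted p = 0.016). The call held without any 1 library in MV411. It was lost in 3 of 6 such fits in MOLM13 (without hairpin 2 replicate 2, scramble replicate 2 or scramble replicate 3) and in 3 of 6 in SKNO1 (without hairpin 2 replicate 1, hairpin 2 replicate 2 or scramble replicate 1).

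RRP9, another U3 snoRNP protein (chr3:51933430-51941941, minus strand), had the largest difference between hairpins of the 47 genes in SKNO1 and the smallest p for that difference in MV411. In MV411 it was 11.1, 11.4 and 11.6 CPM with hairpin 2, 23.5, 20.4 and 24.3 CPM with hairpin 1 and 22.2, 20.8 and 21.8 CPM with scramble. In SKNO1 it was 6.76, 9.27 and 9.78 CPM with hairpin 2, 17.0, 22.6 and 24.7 CPM with hairpin 1 and 12.3, 16.6 and 12.3 CPM with scramble. Hairpin 2 was below and hairpin 1 above every scramble library in SKNO1, whereas in MV411 hairpin 1 overlapped scramble. In MOLM13 it was 13.5, 12.1 and 10.6 CPM with hairpin 2, 11, 16.2 and 16.3 CPM with hairpin 1 and 19.2, 24.8 and 23.9 CPM with scramble, with both hairpins below scramble. Hairpin 2 over scramble gave -0.89 ± 0.20 in MOLM13 (adjusted p = 0.023), -0.95 ± 0.13 in MV411 (adjusted p = 0.00078) and -0.69 ± 0.21 in SKNO1 (adjusted p = 0.057, which misses the threshold). With hairpin 1, RRP9 passed edgeR's test against scramble in no line.

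Of the other small-subunit genes, HEATR1, a large scaffold protein of the early processing complex, was 83.3, 71.3 and 105 CPM with hairpin 2, 140, 127 and 150 CPM with hairpin 1 and 148, 110 and 124 CPM with scramble in MV411. Its fold change over scramble was -0.58 ± 0.17 (adjusted p = 0.034). That call was lost without hairpin 2 replicate 1 or 2 or scramble replicate 1 or 3, and in the fit of all 27 libraries. Exons of HEATR1 overlap LGALS8 on the opposite strand over 23.2% of their length. UTP15 and UTP20, components of the same processing machinery, fell in MOLM13 (-0.77 ± 0.17 and -0.99 ± 0.24) and in MV411 (-0.71 ± 0.22 and -0.85 ± 0.20). In MOLM13 the UTP15 call was lost without hairpin 2 replicate 2 or scramble replicate 2 or 3. The UTP20 call was kept there only without hairpin 2 replicate 1. In MV411 the UTP15 call was lost without hairpin 2 replicate 1 or 2 or scramble replicate 1 or 3, and that of UTP20 held without any 1 library. Both MV411 calls were lost in the fit of all 27 libraries. WDR43, WDR75, LTV1 and the nuclease NOB1, which cuts the 18S rRNA end in the cytoplasm, passed in no line without the block. WDR43 had 80.5, 52.5 and 108 CPM with hairpin 2, 101, 95.5 and 117 CPM with hairpin 1 and 120, 90.5 and 111 CPM with scramble in MV411, with overlapping groups. Within replicate numbers, hairpin 2 was the lower in 3 of 3 pairs, and with the block the fold change of WDR43 was -0.48 (adjusted p = 0.036, against 0.2 without it).

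Large-subunit assembly genes fell with hairpin 2 in 7 of 14 cases in MOLM13, 13 of 14 in MV411 and 3 of 14 in SKNO1. The shares of all genes that fell were 6.03%, 10.2% and 5.69%. GNL2, a GTPase that acts in nuclear export of the large subunit, was the member of this group that passed in no line. BOP1, PES1 and WDR12 form the PeBoW complex, which matures the 5.8S and 28S rRNAs, and all 3 genes fell in MOLM13 and MV411. PES1 (chr22:30576625-30607083, minus strand) was 41.0, 40.5 and 48.6 CPM with hairpin 2, 39.2, 60.6 and 65.7 CPM with hairpin 1 and 69.1, 81.7 and 64.7 CPM with scramble in MOLM13. In MV411 it was 46.7, 37.5 and 46.2 CPM with hairpin 2, 74.3, 64.6 and 84.9 CPM with hairpin 1 and 78.7, 64.7 and 73.7 CPM with scramble. In SKNO1 it was 62.2, 60.3 and 62.9 CPM with hairpin 2, 129, 107 and 137 CPM with hairpin 1 and 92.5, 99.7 and 92.1 CPM with scramble. Hairpin 2 was below scramble without overlap in all 3 lines, and in SKNO1 hairpin 1 was above it without overlap. The SKNO1 change of PES1 with hairpin 1 did not pass the test. The fold changes of hairpin 2 over scramble were -0.71 ± 0.20 in MOLM13 (adjusted p = 0.047), -0.76 ± 0.15 in MV411 (adjusted p = 0.0054) and -0.63 ± 0.15 in SKNO1 (adjusted p = 0.021). The MV411 call held without any 1 library, whereas leaving out any 1 library ended the calls in MOLM13 (adjusted p from 0.058 to 0.18) and SKNO1 (0.052 to 0.09).

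BOP1 had the lowest fold change of the 47 genes with hairpin 2 in MV411, at -1.23 ± 0.18 (adjusted p = 0.0013). It was 36.0, 43.5 and 27.4 CPM with hairpin 2, 70.3, 71.3 and 72.9 CPM with hairpin 1 and 67.5, 92.6 and 87.1 CPM with scramble there. DDX18, an RNA helicase (chr2:117814650-117832379, plus strand), had the lowest fold change in SKNO1, at -1.20 ± 0.23 (adjusted p = 0.0074). Its SKNO1 levels were 41.1, 51.0 and 54.9 CPM with hairpin 2, 71.0, 128 and 81.8 CPM with hairpin 1 and 105, 129 and 98.7 CPM with scramble. Without hairpin 2 replicate 2 the adjusted p of DDX18 in SKNO1 was 0.051. MRTO4, which holds the place of a stalk protein on the maturing subunit, fell in MOLM13 with hairpin 2 (-0.92 ± 0.20, adjusted p = 0.019) and with hairpin 1 (-0.84 ± 0.20, adjusted p = 0.032). It was 27.7, 30.6 and 30.7 CPM with hairpin 2, 22.2, 37.3 and 36.8 CPM with hairpin 1 and 52.7, 64.0 and 55.0 CPM with scramble in MOLM13, without overlap between either hairpin and scramble. The hairpin 1 call of MRTO4 was kept only in the fit without scramble replicate 1, and the hairpin 2 call was lost without scramble replicate 2 or 3. RRS1, which helps bring the 5S particle into the large subunit, fell with hairpin 1 in MOLM13 (-0.61 ± 0.16, adjusted p = 0.045), but not with the replicate number as a block (adjusted p = 0.068), in the fit of all 27 libraries (adjusted p = 0.054) or without any 1 library. NOP2, a methyltransferase of 28S rRNA, fell with hairpin 2 in SKNO1 (-0.67 ± 0.19, adjusted p = 0.04), a call lost in all 6 fits without 1 library. Counts of PPAN and NOP2 are less certain, since 56.0% of the exon bases of PPAN lie in a readthrough gene and 54.4% of those of NOP2 overlap another gene on the same strand.

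Levels were compared between members per kilobase. Per kilobase of merged exons, NPM1 (nucleophosmin) had the highest level of the 47 in scramble libraries, at 263 CPM per kb in MOLM13, 238 in MV411 and 359 in SKNO1. NCL (nucleolin) had 60.3, 61.7 and 42.0 CPM per kb in the same lines, below NOP10 with 86.3, 82.4 and 62.7. NPM1 was 622, 593 and 865 CPM with hairpin 2, 711, 840 and 836 CPM with hairpin 1 and 838, 1102 and 1084 CPM with scramble in MOLM13, and its fold change of -0.52 ± 0.19 did not pass the test (adjusted p = 0.11). NCL was 332, 214 and 428 CPM with hairpin 2, 432, 391 and 486 CPM with hairpin 1 and 511, 346 and 425 CPM with scramble in MV411, with overlapping groups, and passed in no line without the block. With the block its MV411 fold change was -0.45 (adjusted p = 0.045, against 0.25 without it), hairpin 2 being the lower in 2 of 3 pairs. NPM1 has 45 named processed copies in the genome, which makes its counts uncertain.

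DDX21, an RNA helicase that couples RNA polymerase I and II transcription to rRNA processing (chr10:68956128-68985073, plus strand), fell with both hairpins in MOLM13. It gave 160, 152 and 195 CPM with hairpin 2, 150, 178 and 204 CPM with hairpin 1 and 274, 341 and 355 CPM with scramble. Every hairpin library lay below every scramble library. The fold change was -0.91 ± 0.18 with hairpin 2 (adjusted p = 0.013) and -0.87 ± 0.18 with hairpin 1 (adjusted p = 0.018). Both calls were lost without scramble replicate 2 or 3, and the hairpin 1 call also without hairpin 1 replicate 1 or 2. The hairpin 1 call was lost as well in the fit of all 27 libraries (adjusted p = 0.061). In MV411 DDX21 was 179, 112 and 256 CPM with hairpin 2, 241, 208 and 326 CPM with hairpin 1 and 327, 213 and 261 CPM with scramble, and the groups overlapped. Hairpin 2 was the lower in 3 of 3 pairs, and the fold change of -0.58 (adjusted p = 0.19) became -0.63 with the block (adjusted p = 0.019).

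LYAR, a nucleolar zinc-finger protein first known from its link to cell growth (chr4:4267701-4290169, minus strand), fell with hairpin 2 in all 3 lines and had the lowest fold change of the 47 in MOLM13. Its levels there were 11.8, 8.59 and 14.2 CPM with hairpin 2, 12, 15.7 and 16.5 CPM with hairpin 1 and 24.3, 32.0 and 25.4 CPM with scramble. The fold change of hairpin 2 over scramble was -1.22 ± 0.21 in MOLM13 (adjusted p = 0.0081), -1.02 ± 0.24 in MV411 (adjusted p = 0.015) and -1.15 ± 0.33 in SKNO1 (adjusted p = 0.04). With hairpin 1 in MOLM13 it was -0.89 ± 0.21 (adjusted p = 0.032), a call kept, of the 6 fits without 1 library, only without scramble replicate 1, and lost in the fit of all 27 libraries (adjusted p = 0.057). The hairpin 2 call in MOLM13 held without any 1 library and the MV411 call was lost without hairpin 2 replicate 1 (adjusted p = 0.061). The SKNO1 call was lost in all 6 fits without 1 library (adjusted p from 0.079 to 0.15). GNL3 (nucleostemin) fell in SKNO1 (-0.77 ± 0.20, adjusted p = 0.03), a call that was also lost in each of those fits. With the block GNL3 fell in MV411 too (-0.61, adjusted p = 0.019, against 0.16 without it). MYBBP1A, a nucleolar protein that binds MYB, fell in MV411 (-0.74 ± 0.16, adjusted p = 0.0089).

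**Figure D4:**
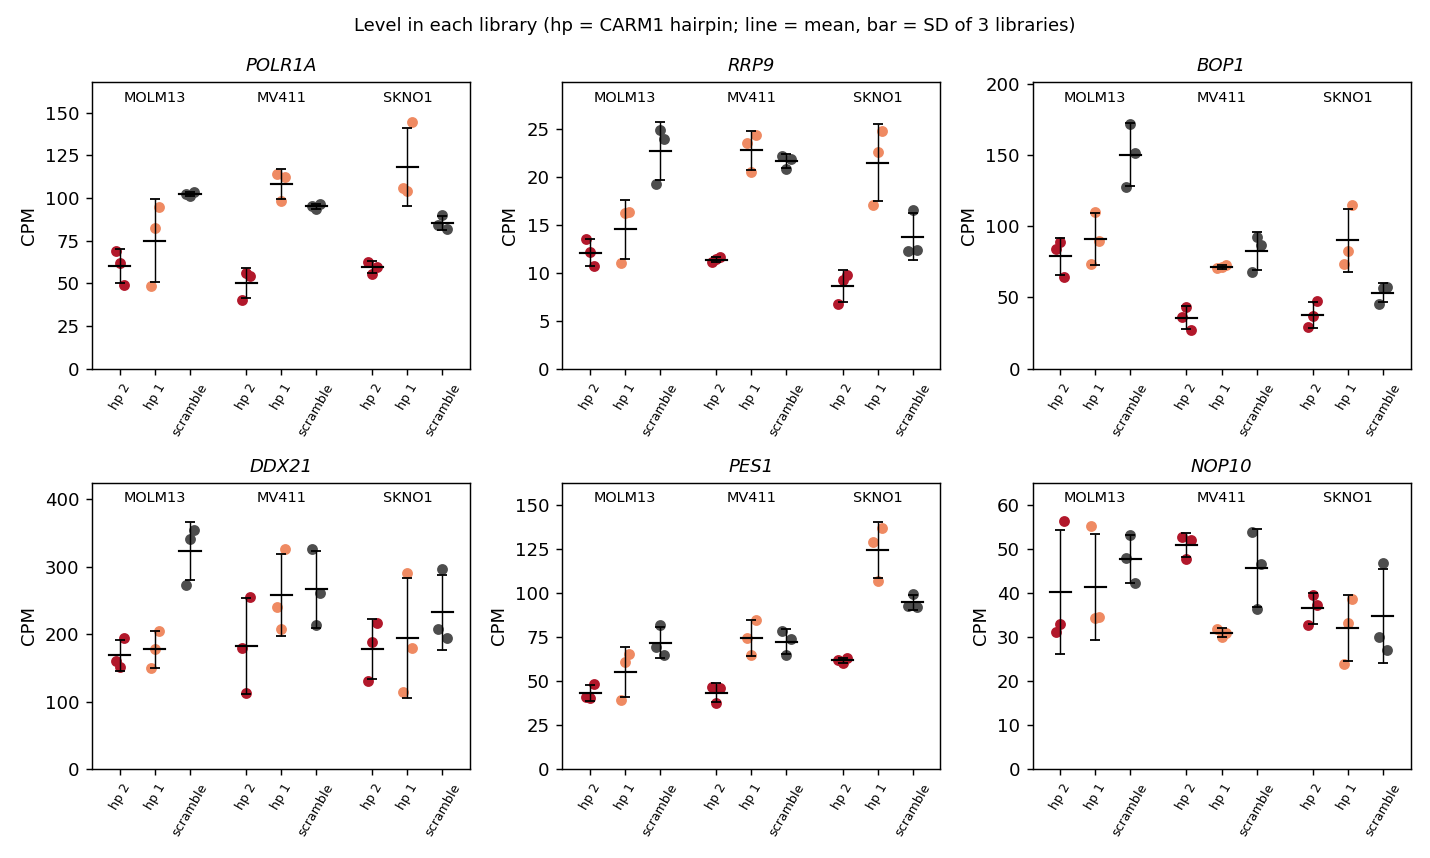
CPM of 6 members in each library (points), with the mean (line) and SD (bar) of 3 libraries; hp is a CARM1 hairpin, ordered hairpin 2, hairpin 1 and scramble within each line. POLR1A, RRP9 and PES1 were lower with hairpin 2 than with hairpin 1 in every library of MV411 and SKNO1, DDX21 was low with both hairpins in MOLM13, and NOP10 was low with hairpin 1 in MV411.

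A direct comparison of the hairpins does not use the scramble libraries. Hairpin 2 was lower than hairpin 1 for 24 of 47 members in MV411 (5.62% of all genes were lower) and higher for 1, NOP10 (5.86% of all genes were higher). In SKNO1 it was lower for 17 members (5% of all genes) and higher for 0 (4.52% of all genes). In MOLM13, 0 members differed (0% of all genes), with 0 at an unadjusted p under 0.05 and 0 by DESeq2. A total of 14 members differed in both lines, which is 56% of the 25 in MV411 and 82.4% of the 17 in SKNO1. Of the 16035 genes tested in both lines, 641 differed between hairpins in both, which is 35.8% of those called in MV411 and 41.8% of those called in SKNO1. The 14 members were POLR1A, the snoRNP protein NOP56, the small-subunit genes IMP4, NOL6, RRP9 and RRP12, the large-subunit genes BOP1, DDX18, MRTO4, NOP16, NOP2, PES1 and PPAN, and MYBBP1A.

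The members with the smallest p between hairpins in MV411 were RRP9 (-1.01 ± 0.13, adjusted p = 0.0011), POLR1A (-1.12 ± 0.15, adjusted p = 0.0013) and MYBBP1A (-0.998 ± 0.16, adjusted p = 0.0033). In SKNO1 they were PES1 (-1.01 ± 0.15, adjusted p = 0.0018), RRP9 (-1.32 ± 0.22, adjusted p = 0.0028) and POLR1A (-0.997 ± 0.17, adjusted p = 0.0034). All 6 calls held without any 1 library. In total 9 members in MV411 and 5 in SKNO1 (BOP1, IMP4, PES1, POLR1A and RRP9) were called in each fit without 1 library.

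**Figure D5:**
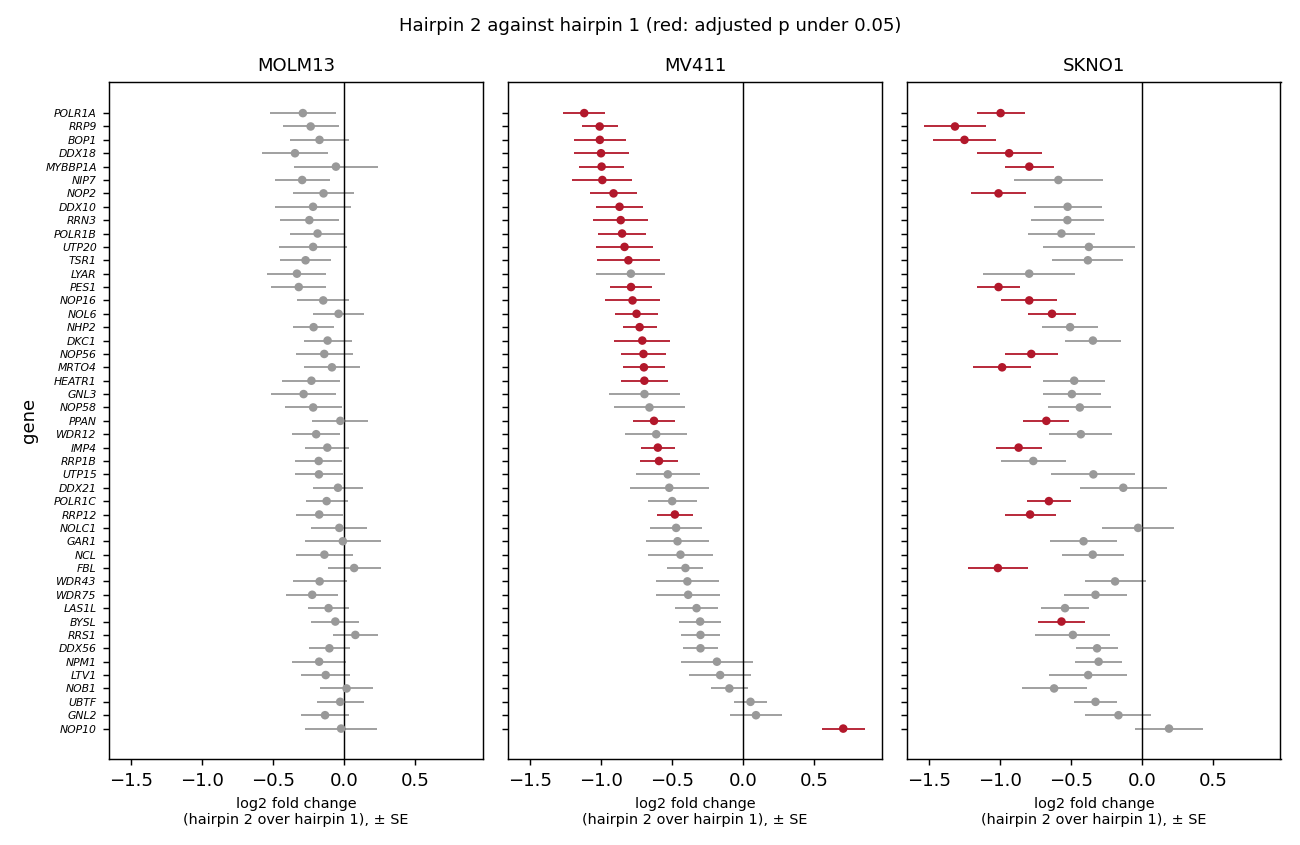
Log2 fold change of hairpin 2 over hairpin 1 for the 47 genes in each line, with the standard error of the fit as a bar; red marks an adjusted p under 0.05 and genes run in order of the MV411 value. There are 0 red points in MOLM13, 25 in MV411 (24 below 0 and NOP10 above) and 17 in SKNO1, all below 0.

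The hairpin 1 effect (hairpin 1 over scramble) was then compared between lines in a fit of all 27 libraries. It was lower in MOLM13 than in SKNO1 for 12 members (3.1% of all genes were lower), and higher for 0 (1.46% of all genes). BOP1 differed by -1.48 ± 0.30 on the log2 scale (adjusted p = 0.0072), MRTO4 by -1.39 ± 0.27 (adjusted p = 0.0059) and RRP9 by -1.29 ± 0.26 (adjusted p = 0.0072). BOP1 was 73.3, 110 and 89.4 CPM with hairpin 1 against 128, 172 and 151 CPM with scramble in MOLM13. In SKNO1 it was 73.1, 82.3 and 115 CPM with hairpin 1 against 45.6, 56.8 and 57.6 CPM with scramble. The groups did not overlap in either line and lay in opposite orders. Against scramble, BOP1 passed edgeR's test with hairpin 1 in neither line, while DESeq2 called it in both. The calls of BOP1, MRTO4, RRP9, BYSL and FBL between lines held in each of the 12 fits without 1 library. The other comparisons between lines gave 0 members by edgeR, beside 0% of all genes in either direction for hairpin 1 in MOLM13 minus MV411 and 0.983% in MV411 minus SKNO1. For hairpin 2 the shares of all genes were 0.0705% in MOLM13 minus MV411, 0.489% in MOLM13 minus SKNO1 and 0.927% in MV411 minus SKNO1. At an unadjusted p under 0.05, hairpin 1 in MOLM13 minus MV411 had 7 members (14.9%, beside 6.67% of all genes) and in MV411 minus SKNO1 11 (23.4%, beside 12.9%). Hairpin 2 had 0 in MOLM13 minus MV411 (6.52% of all genes), 3 in MOLM13 minus SKNO1 (6.38%, beside 13.6%) and 3 in MV411 minus SKNO1 (6.38%, beside 12.5%). DESeq2 called 2 members for hairpin 1 in MV411 minus SKNO1 (4.26%, beside 2.93% of all genes) and 1 for hairpin 2 in MV411 minus SKNO1 (2.13%, beside 2.72%), and 0 in the other 3 comparisons.

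The levels were also compared library by library, without a model. Every hairpin 2 library lay below every scramble library for 40 of 47 members in MOLM13 (17.3% of all genes), 36 in MV411 (15.1%) and 33 in SKNO1 (19.2%). With hairpin 1 the counts were 30 in MOLM13 (17.3%), 5 in MV411 (13.8%) and 0 in SKNO1 (8.79%). In SKNO1, every hairpin 1 library lay above every scramble library for 12 members (10.8% of all genes).

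The counts of calls depended on single libraries. With hairpin 2, the members called in each fit without 1 library were LYAR in MOLM13, and BOP1, IMP4, MRTO4, NHP2, NOL6, NOP56, PES1, POLR1A, RRP1B, RRP9 and UTP20 in MV411, with 0 in SKNO1. With hairpin 1 there were 0 in each line. For hairpin 2 in MOLM13 the 17 calls became 1 without scramble replicate 2, 2 without scramble replicate 3, 6 without hairpin 2 replicate 2, and 11 without hairpin 2 replicate 1 or scramble replicate 1. For hairpin 1 in MOLM13 the 5 calls became 0 without hairpin 1 replicate 1, hairpin 1 replicate 2, scramble replicate 2 or scramble replicate 3, and 1 without hairpin 1 replicate 3. Leaving out scramble replicate 2 or 3 thus moved the hairpin 2 count of MOLM13 more than leaving out any 1 hairpin 2 library. For hairpin 2 in MV411 the 34 calls became 12 without hairpin 2 replicate 1, 20 without scramble replicate 1 and 19 without scramble replicate 3. For hairpin 2 in SKNO1 the 6 calls became 0 without hairpin 2 replicate 2, 1 without hairpin 2 replicate 1 or scramble replicate 1, and 2 without any of the other 3 libraries. Across such fits hairpin 2 lowered 1 to 12 members in MOLM13, 12 to 37 in MV411 and 0 to 2 in SKNO1, so MV411 kept the most calls. Between the hairpins, the 25 calls in MV411 became 10 without replicate 1 of either hairpin and 11 without hairpin 1 replicate 3. The 17 calls in SKNO1 became 5 without hairpin 2 replicate 2, 7 without hairpin 1 replicate 3, 8 without hairpin 2 replicate 1 and 9 without hairpin 2 replicate 3. The 12 members that differed between MOLM13 and SKNO1 with hairpin 1 became 5 without MOLM13 scramble replicate 2, SKNO1 scramble replicate 1 or SKNO1 hairpin 1 replicate 3, and 6 without SKNO1 scramble replicate 3.

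Other ribosome biogenesis genes, written as a list outside the 47, were also examined. With hairpin 2, 24 of 117 fell in MOLM13 and 30 in MV411, where 6.03% and 10.2% of all genes fell. In SKNO1, 7 of 117 fell, near the share of all genes (5.69%), and 1 (BAZ2A) rose. Their median log2 fold changes with hairpin 2 were -0.43, -0.41 and -0.30 in MOLM13, MV411 and SKNO1. In MOLM13 the smallest p-values belonged to MAK16 (-1.12 ± 0.19, adjusted p = 0.0081), EXOSC2 (-0.94 ± 0.16, adjusted p = 0.009) and BRIX1 (-0.93 ± 0.17, adjusted p = 0.011). MAK16 and BRIX1 are large-subunit assembly factors and EXOSC2 is an exosome subunit. In MV411 they belonged to RRP1 (-0.91 ± 0.13, adjusted p = 0.0012), TCOF1 (-0.92 ± 0.14, adjusted p = 0.0012), the treacle protein that recruits RNA polymerase I, and WDR74 (-0.94 ± 0.14, adjusted p = 0.0014). In SKNO1 they belonged to the RNA polymerase I subunits CD3EAP (-0.94 ± 0.20, adjusted p = 0.013) and POLR1E (-0.69 ± 0.16, adjusted p = 0.016) and to RPF2 (-1.04 ± 0.23, adjusted p = 0.013), which carries 5S rRNA into the large subunit. With hairpin 1, 9 fell in MOLM13 (4.25% of all genes fell), 1 in MV411 (RRP36, beside 4.13% of all genes) and 0 in SKNO1 (0.277% of all genes). In SKNO1, 0 rose by edgeR, and 20 (17.1%) had an unadjusted p under 0.05, 5 of them lower and 15 higher, beside 17% of all genes.

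Members with and without the E-box were described side by side. With hairpin 2 over scramble in MV411, 10 of the 14 with CACGTG fell (median log2 fold change -0.75), as did 18 of the 26 without it (-0.68). In MOLM13, 5 of 14 with the sequence (median -0.58) and 8 of 26 without it (-0.62) fell. In SKNO1 the counts were 3 of 14 (median -0.44) and 2 of 26 (-0.49). Of all genes, 10.2% fell in MV411, 6.03% in MOLM13 and 5.69% in SKNO1. With hairpin 2 over hairpin 1 in SKNO1, 9 of 14 with CACGTG were lower (median -0.72) and 5 of 26 without it (-0.50), beside 5% of all genes. In MV411 the same comparison gave 8 of 14 (median -0.65) and 12 of 26 (-0.66), beside 5.62%. In MOLM13 it gave 0 of 14 (median -0.124) and 0 of 26 (-0.177). With hairpin 1 over scramble, the medians with and without CACGTG were 0.317 and 0.032 in SKNO1, -0.0395 and -0.0454 in MV411, and -0.495 and -0.451 in MOLM13. The SKNO1 sets thus lay further apart with hairpin 1 than with hairpin 2. The medians thus had no common order across lines. These are counts over the 40 genes with a window, and the difference between them was not tested.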

How the data were processed

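RNA-seq expected counts were deposited for 57992 genes in 27 libraries of 9 groups, unnormalized. Per the labels' protocols, total RNA was depleted of ribosomal RNA and made into stranded libraries. Per the submitters' processing notes, STAR 2.5.3, RSEM (version not given in the sources used here) and GRCh38.p7 were used. RSEM divides reads that match several genes, and 30.39% of the non-zero values deposited by the authors were not whole (tolerance 1e-09). Totals ranged from 25063577 to 53291599 per library, which sets the counting precision of low genes.

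Counts were rounded. In R 4.3.3, edgeR 4.0.16 was used with TMM scaling, a low-count filter (filterByExpr with min.count of 10 and min.total.count of 15) and the two-sided quasi-likelihood F-test. Each line's 9 libraries were fitted together, with differences between lines tested as interactions in all 27. P-values were adjusted by Benjamini-Hochberg over all genes tested (MOLM13 17732, MV411 17816, SKNO1 18430 and the fit of 27 libraries 21262), with 0.05 as the threshold. The standard error is that of the log2 fold change in the fit, and CPM are scaled by TMM over all 27 libraries. The model was also run on simulated counts, drawn for each gene separately. Such counts hold no shifts shared by many genes in a library, so the effect of such shifts on counts of members was not tested. Alternatives were DESeq2 1.42.0, voom in limma 3.58.1, other scaling and filters, a replicate block and fits without 1 library.

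The members and lists were chosen with earlier results of these data known. Named members were the 2 most expressed per role, up to 5 per direction with the smallest p for each hairpin against scramble, up to 3 for the other comparisons, and those past the threshold in both directions. Others are named where a count or a complex is described, and were chosen after their values were seen. The other list held 127 symbols, of which 117 matched a single row. Genes were placed with GENCODE 29.

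Same-numbered replicates were checked for pairing by the correlation of their deviations from group means. All 3 pairs exceeded 0.1 for hairpin 1 and scramble in MOLM13 (0.287, 0.135 and 0.205) and MV411 (0.14, 0.192 and 0.145), and for hairpin 2 and scramble in MV411 (0.155, 0.501 and 0.222). In these the numbers were taken to pair the samples, from the data and not from the labels. The block was fitted to all libraries of a line. In MV411 it thus also covered hairpin 2 and hairpin 1, whose pairs correlated by 0.0637, 0.228 and 0.254, the first not above 0.1. Scramble replicates 1 and 3 of SKNO1 were the closest pair (chi-square per gene 7.76, next 24.9) but differed by more than sampling noise.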

Additional observations from a re-analysis of the deposited data

Results flagged for a closer look

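The effect of hairpin 1 differed between lines for 12 members, by the test of MOLM13 minus SKNO1. The 3 with the smallest p were BOP1 (-1.48 on the log2 scale), MRTO4 (-1.39) and RRP9 (-1.29). Each had a negative fold change with hairpin 1 in MOLM13 (-0.73, -0.84 and -0.65) and a positive one in SKNO1 (0.74, 0.54 and 0.63). Against scramble only the MOLM13 change of MRTO4 passed edgeR's test. Of the fits without 1 library, that call was kept only without scramble replicate 1. CARM1 with hairpin 1 had a log2 fold change of -2.37 in MOLM13 and -1.25 in SKNO1, and its part in the difference was not tested. SKNO1 alone received GM-CSF, and the part of GM-CSF was not tested either.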

How the results depend on the processing

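Of the named members' fold changes that passed the test, none changed sign under the alternatives run. Counts of members called moved by over 1.5 times under some settings. Without the count filter, hairpin 1 in MOLM13 lowered 9 members, hairpin 2 lowered 28 in MOLM13 and 13 in SKNO1, hairpin 1 raised 1 in SKNO1, and 7 differed between MOLM13 and SKNO1 with hairpin 1. DESeq2 gave 13, 30 and 12 lower in the same 3 comparisons with scramble, 3 higher with hairpin 1 in SKNO1, and 2 (hairpin 1) and 1 (hairpin 2) differing between MV411 and SKNO1. A fit of all 27 libraries gave 10 and 28 lower in MOLM13 with hairpins 1 and 2 and 0 in MV411 with hairpin 1, for which limma-voom also gave 0. Of the 5 hairpin 1 calls in MOLM13 the fit of all 27 libraries shared 2 and lost RRS1, DDX21 and LYAR. Where the replicate numbers were taken from the data to pair the samples, the replicate block gave 4, 1 and 40 members lower (main 5, 1 and 34) for hairpin 1 in MOLM13, hairpin 1 in MV411 and hairpin 2 in MV411. Where only the number is shared, the replicate block gave 12 lower with hairpin 2 and 1 higher with hairpin 1 in SKNO1, and 1 differing between MV411 and SKNO1 with hairpin 1. The cause of these shifts was not tested.

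Leaving out 1 library gave 0 to 4 members lower with hairpin 1 and 1 to 12 with hairpin 2 in MOLM13, 0 to 1 and 12 to 37 in MV411, and 0 to 2 with hairpin 2 in SKNO1. Between hairpins it gave 10 to 29 in MV411 and 5 to 24 in SKNO1, and 5 to 16 for hairpin 1 in MOLM13 minus SKNO1. An arm of 2 libraries has less power, and a lost call is no measure of the effect. The lowest expected count of a member was 68 in a library, and the part of counting error in the spread between replicates was not tested.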
